A study of Mus musculus with 4 samples.

Results

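The genes described here encode the factors that make selenocysteine on its tRNA and place it into proteins, in livers of mice that lack or carry altered copies of the gene for that tRNA, Trsp. They were chosen by name: every array probe whose annotation gave Secisbp2, Sepsecs, Pstk, Sephs1, Trnau1ap, Scly, Ncl, Rpl30 or Sars1 as its single gene. This gave 11 probes of the 15478 with values and 9 genes of the 9285 that could be named. Sepsecs had 3 probes and each of the other genes had 1; Sars1 appears in the annotation under its older symbol, Sars. Livers came from male mice of B6/FVB background, 7 to 8 weeks old and fed a diet sufficient in selenium. The DTrsp mice were knockouts without Trsp in the liver. The A34 mice carried 2 copies of a Trsp transgene with a T-to-A change at position 34 of the tRNA. The G37L mice carried 2 copies, and the G37H mice 16 copies, of a transgene with an A-to-G change at position 37. Each mutant was set against wild-type littermates (Trsp) on 2-colour arrays, with 3 animals for G37H and 4 for each of the other lines. The sources used here give neither the Cre driver of the knockout nor whether transgenic mice kept their own Trsp. Trsp itself had no named probe, so the deletion was not checked.

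Selenocysteine differs from the other amino acids of proteins in being built on its own tRNA. The tRNA is first charged with serine by seryl-tRNA synthetase (Sars1), the serine is phosphorylated by Pstk, and Sepsecs exchanges the phosphate for selenium, which arrives as selenophosphate. The UGA codon is then read as selenocysteine rather than as a stop where the messenger carries a SECIS element, a stem-loop bound by Secisbp2, with a dedicated elongation factor, Eefsec. Positions 34 and 37 lie in the anticodon loop; the base at 34 pairs with the codon and is modified, and the A at 37 is isopentenylated by Trit1. Liver makes many selenoproteins and secretes selenoprotein P into plasma.

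The deposited values are log ratios that the authors averaged over the animals, 1 value per probe and comparison. A positive value is taken to mean a higher level in the mutant (Cy5) than in wild type (Cy3), on a log2 scale. This direction is likely, from the dyes in the labels, and not stated outright; if it were turned, every sign below would change. The base of the logarithm is also not stated. The averages carry no SD or p-value, and differences could not be set against the spread between animals. The spread between probes of 1 gene gives a rough scale. Among 1791 genes with 2 probes the median distance between the probes was 0.43 for DTrsp, 0.29 for A34, 0.31 for G37L and 0.30 for G37H, and its 90th percentile was 1.17, 0.77, 0.87 and 0.87. The central 50% of all genes ran from -0.15 to 0.44 in DTrsp, from -0.13 to 0.28 in A34, from -0.42 to 0.18 in G37L and from -0.38 to 0.16 in G37H.

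Most values of the selenocysteine factors lay close to wild type, as did those of most genes. Of the 36 gene values, 27 were less than 1.5-fold from wild type. Of the 9 genes, 7 reached 1.5-fold in at least 1 line. Secisbp2 and the mean of the Sepsecs probes stayed under it in every line, although the second Sepsecs probe was at -0.79 in DTrsp. Shares of all genes are given below by line and were not counted over the 4 lines together. These counts over the 4 lines therefore cannot set the members apart from all genes. The members at 2-fold or more were Sephs1, which was higher in both G37 lines, and Ncl, which was lower in G37L. At the 2-fold level (a log2 ratio of 1 or more in size), 0 of 9 members were higher and 0 lower in DTrsp, where 3.27% of all genes were higher and 1.62% lower. In A34 the counts were also 0 and 0, against 1.40% and 0.452% of all genes. In G37L 1 member was higher and 1 lower, against 2.51% and 3.96%. In G37H 1 was higher and 0 lower, against 2.78% and 3.10%. At 1.5-fold, 1 member was higher in DTrsp (Rpl30) and 0 lower, against 15.6% and 6.96% of all genes. In A34, 2 were higher (Scly and Sars1) and 0 lower, against 7.60% and 2.65%. In G37L, 1 was higher (Sephs1) and 3 lower (Pstk, Trnau1ap and Ncl), against 7.45% and 15.3%, and in G37H 1 was higher (Sephs1) and 1 lower (Trnau1ap), against 7.30% and 13.1%. No member was 3-fold apart in any line; of all genes 0.819% were in DTrsp, 0.269% in A34, then 1.29% in G37L and 0.937% in G37H. Counts of 0 to 3 among 9 genes do not set the list apart from all genes.

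**Figure D1:**
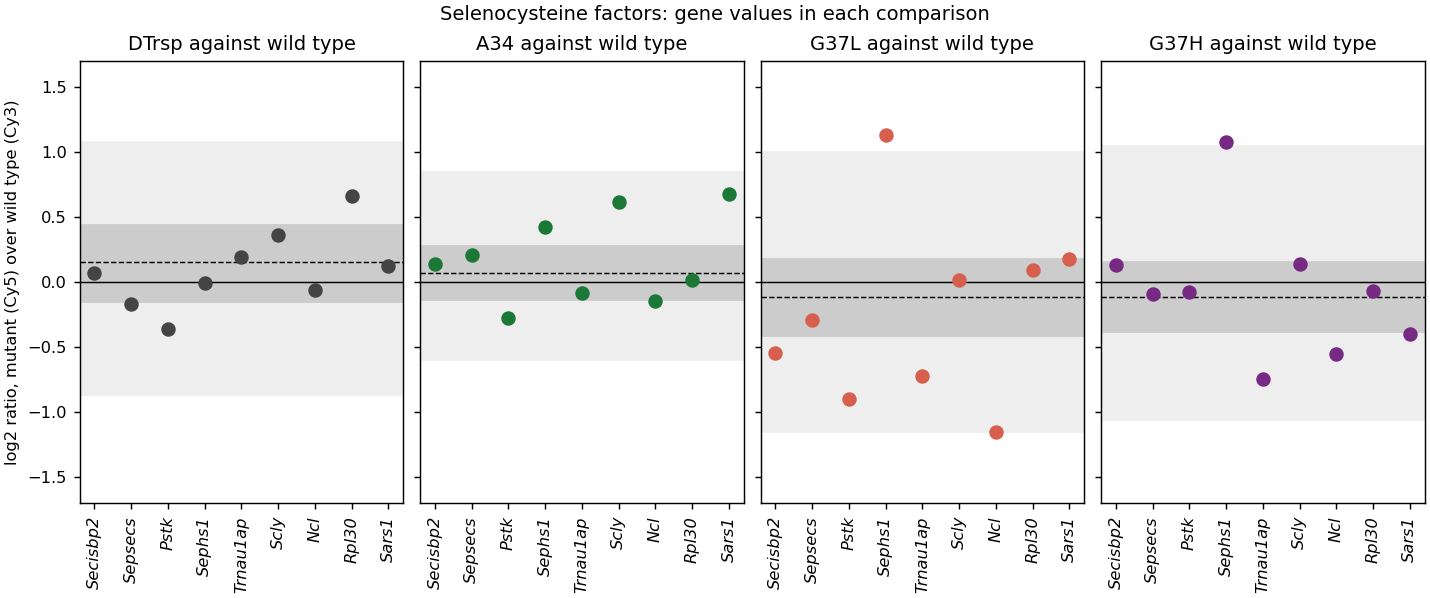
Log2 ratio of mutant over wild type (vertical axis) for the 9 selenocysteine factors (horizontal axis) in the 4 comparisons; each point is the authors' average, and for Sepsecs the mean of 3 probes. The dark band holds the central 50% and the light band the central 95% of all 9285 genes, the dashed line is their median, and no error bars can be drawn; Sephs1 lies above the light band in G37L and G37H, and all other points lie inside it.

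The median of the 9 members was 0.07 for DTrsp, 0.14 for A34, -0.29 for G37L and -0.08 for G37H. The medians of all genes were 0.16, 0.07, -0.11 and -0.11, so the members' medians lay -0.09, 0.07, -0.18 and 0.04 from them. Of the 9 members, 3 lay above the median of all genes for DTrsp, 5 for A34, 4 for G37L and 6 for G37H. In G37L the values of Pstk, Secisbp2 and 1 Sepsecs probe averaged fewer arrays than labelled, and without them the members' median there was 0.02. Signs of small values depended on where 0 was set. Abundant transcripts (ribosomal, mitochondrial respiratory, reference and hepatocyte genes, 143 in all) had medians of 0.53 (DTrsp), 0.19 (A34), 0.26 (G37L) and 0.15 (G37H). Of the 36 member values, 22 kept 1 sign as deposited, relative to all genes and relative to abundant transcripts, and 14 did not. Relative to abundant transcripts, the members' median in DTrsp was -0.46.

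Sephs1 was the member farthest above wild type. It is the paralogue of the selenophosphate synthetase Sephs2, has no selenocysteine of its own, and its catalytic role is less settled. Its log2 ratio was -0.01 for DTrsp, 0.43 for A34, 1.14 for G37L and 1.08 for G37H. Both G37 lines were thus about 2-fold above wild type (2.20-fold and 2.12-fold), A34 lay between, and DTrsp lay at wild type as deposited. The DTrsp value was -0.17 relative to all genes and -0.54 relative to abundant transcripts. In G37L 173 genes of 9285 were at or above Sephs1, and in G37H 206. The sign in both G37 lines and in A34 was the same relative to all genes and to abundant transcripts, although relative to abundant transcripts neither G37 value reached 2-fold (0.87 and 0.93). The Sephs1 value in G37H was an average over 2 of the 3 arrays, and those in DTrsp and A34 over 3 of the 4, as their decimals show.

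Sephs2, the enzyme that makes selenophosphate and is itself a selenoprotein, had a different order of values. Its single probe was at 1.09 in DTrsp and 1.21 in A34, but at 0.01 in G37L and -0.25 in G37H. The paralogues had their highest values in different lines, Sephs2 in DTrsp and A34 and Sephs1 in G37L and G37H. The Sephs2 value in DTrsp was 0.93 relative to all genes and 0.56 relative to abundant transcripts, both under 2-fold, and in A34 it was 1.14 and 1.02.

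Ncl had the lowest value of any member, in G37L; Pstk was lower than Ncl in DTrsp and A34, and Trnau1ap in G37H. It encodes nucleolin, an abundant nucleolar protein of ribosome assembly that also binds SECIS elements. Its log2 ratio was -0.06 for DTrsp, -0.15 for A34, -1.15 for G37L and -0.55 for G37H. It was below 0 in all 4 lines, also relative to all genes and to abundant transcripts, and 2.22-fold below wild type in G37L, where 234 of 9285 genes were at or below it. Among 34 measured genes of the nucleolus and ribosome biogenesis, Ncl was at place 2 from the bottom in G37L, next to the RNA polymerase I subunit Polr1b at -1.16. The other 33 genes there had a median of -0.04, with 50% of them between -0.28 and 0.20. In G37H Ncl was at place 4 from the bottom of the 34, and the others had a median of -0.07. Of the list, 1 gene was at least 2-fold higher in DTrsp (the ribonucleoprotein Nop58, 1.21), and 2 were at least 2-fold lower in G37L (Ncl and Polr1b).

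The bases just before the start of both genes are shown because they are the only members that passed 2-fold, with those of Secisbp2, which holds a motif match. Windows of 250 bases, 5′ to 3′ on the gene's strand, come from RefSeq on GRCm38.p6, and 7 of the 9 members had one (Sepsecs and Rpl30 did not). Capitals mark matches to a searched motif; the first and second windows hold none. The Sephs1 window is the first of 2 starts, chr2:4881977-4882226 on the plus strand; the Ncl window is chr1:86359456-86359705 on the minus strand; the Secisbp2 window is chr13:51651458-51651707 on the plus strand.
Sephs1: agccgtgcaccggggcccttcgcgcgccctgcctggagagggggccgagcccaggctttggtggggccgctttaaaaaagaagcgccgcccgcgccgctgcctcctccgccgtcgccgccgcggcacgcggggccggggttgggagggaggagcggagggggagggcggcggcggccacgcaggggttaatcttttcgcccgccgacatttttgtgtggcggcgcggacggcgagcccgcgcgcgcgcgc
Ncl: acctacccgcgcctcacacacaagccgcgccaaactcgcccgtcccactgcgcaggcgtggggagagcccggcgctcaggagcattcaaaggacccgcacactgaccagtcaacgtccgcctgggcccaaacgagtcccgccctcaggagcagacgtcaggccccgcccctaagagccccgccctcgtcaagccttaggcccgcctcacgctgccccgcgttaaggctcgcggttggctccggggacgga
Secisbp2: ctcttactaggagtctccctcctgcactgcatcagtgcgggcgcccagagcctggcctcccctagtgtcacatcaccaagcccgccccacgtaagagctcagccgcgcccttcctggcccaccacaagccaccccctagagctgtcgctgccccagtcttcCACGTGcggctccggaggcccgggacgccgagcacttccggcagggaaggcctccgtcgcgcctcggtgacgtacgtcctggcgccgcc

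The Sephs1 and Ncl windows shown were rich in G and C, at 76.0% and 69.6%. The median over all 32851 windows, with several starts for some genes, was 52.4%. The window of the second Sephs1 start, not shown, had 51.2%. The Secisbp2 window had 69.2%. Both strands were searched for the motifs named below, some of them bound by factors that respond to oxidants, metals, growth or amino acid supply. The antioxidant response element (TGACNNNGC) was in 0 of the 7 member genes and 10.2% of all windows. The metal response element core was searched in its G form (TGCGCNC), found in Pstk and 12.5% of all windows, and in its A form (TGCACNC), found in 0 members and 10.4%. The canonical E-box (CACGTG) was in Secisbp2, at bases -89 to -84 from the start, and in 6.02% of all windows. The C/EBP-ATF composite element (TGATGNAA) and the cAMP response element (TGACGTCA) were in 0 members, and in 3.45% and 1.55% of all windows. The CCAAT box (CCAAT) was in Scly at 3 places and in 33.8% of all windows. A match describes these letters and is not a bound site.

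Of the enzymes that build selenocysteine on the tRNA, Sars1 had its highest value in A34. Its log2 ratio was 0.12 for DTrsp, 0.68 for A34, 0.18 for G37L and -0.40 for G37H. In A34 it was the highest of 19 measured cytosolic tRNA synthetase and synthetase-complex genes, 1.60-fold above wild type; the other 18 lay between -0.55 and 0.26 with a median of 0.00. In the other lines it lay within that list, at place 11 from the top in DTrsp, 5 in G37L and 12 in G37H. Of those 19 genes, 2 were at least 2-fold higher in DTrsp (the leucyl and threonyl enzymes Lars1 at 1.44 and Tars1 at 1.03), 0 passed in A34 or G37L, and 1 was at least 2-fold lower in G37H (the arginyl enzyme Rars1 at -1.07). Sars2, the mitochondrial seryl-tRNA synthetase, was at 0.14, 0.15, -0.40 and -0.41 in DTrsp, A34, G37L and G37H.

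Pstk, the kinase of the second step, was below 0 in all 4 comparisons. Its log2 ratio was -0.36 for DTrsp, -0.27 for A34, -0.90 for G37L and -0.08 for G37H. The value in G37L was 1.86-fold below wild type and was an average over 3 of 4 arrays. In G37H it was 0.04 above the median of all genes.

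Sepsecs, the selenium-transferring synthase of the last step, had values near 0 when its 3 probes were averaged, -0.16 for DTrsp, 0.21 for A34, -0.29 for G37L and -0.09 for G37H. In DTrsp the probes did not share a direction, at 0.58, -0.79 and -0.28. They spanned 1.37, a range reached in DTrsp by 58 of the 480 genes with 3 probes (12.1%), so no level of Sepsecs in DTrsp can be given from them. In A34 the probes were at 0.17, 0.29 and 0.18 and in G37L at -0.14, -0.32 and -0.40, each time on 1 side of 0. In G37H they were at 0.11, -0.32 and -0.07.

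**Figure D2:**
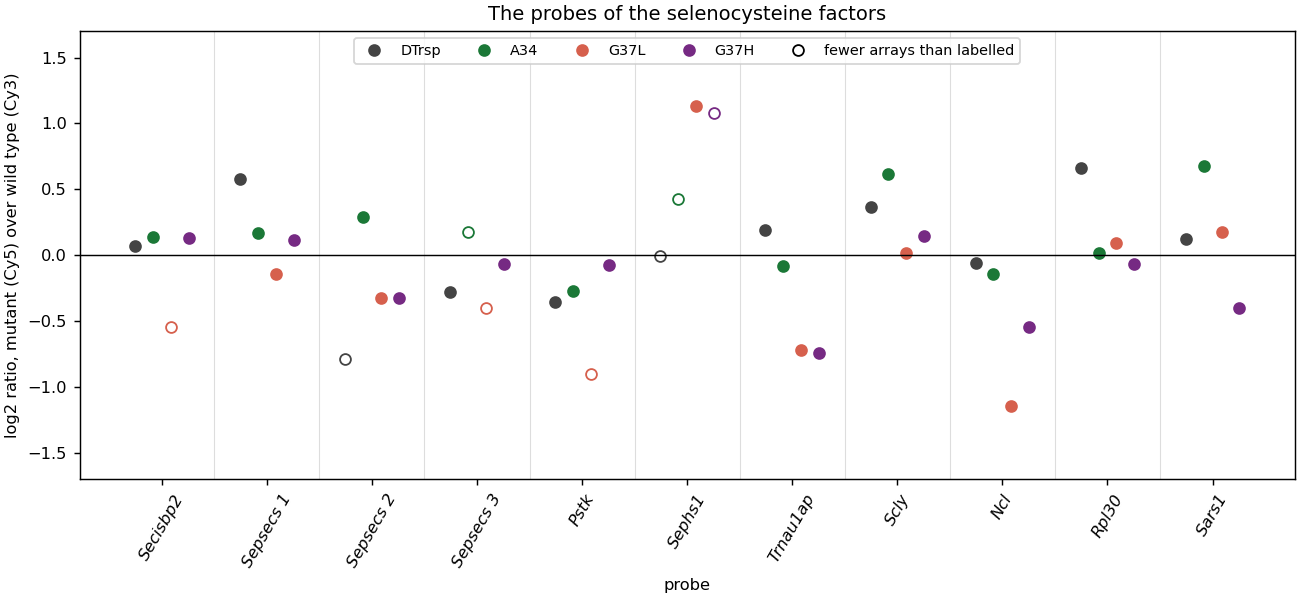
Log2 ratio of mutant over wild type (vertical axis) for each of the 11 probes (horizontal axis), coloured by line. Open circles are values whose decimals show an average over fewer arrays than labelled, and filled circles are all others; the Sepsecs probes 1 to 3 span 1.37 in DTrsp, and 3 of the 4 Sephs1 values are open.

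The decimals of a value tell in part how many arrays stand behind it, if each array's log ratio had 4 decimals. Of the 44 member probe values, 8 were averages over fewer arrays than labelled: 4 of these are named above for Sephs1 and Pstk, and the others were the second Sepsecs probe in DTrsp, the third in A34 and G37L, and Secisbp2 in G37L. A further 10 had no fraction of a step and do not show their number of arrays. Decimals that fit 2 arrays in a line of 4 fit 4 arrays as well, and such values were not counted. The G37L values of Sephs1 and Ncl were of this kind. Across all probes the share shown to be on fewer arrays, a lower bound, was 14.0% for DTrsp, 13.5% for A34, 5.77% for G37L and 14.4% for G37H. The part of missing arrays in the values of Sephs1, Pstk and Secisbp2 was not tested.

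Scly, the lyase that frees selenium from selenocysteine for reuse, was at or above 0 in every line. Its log2 ratio was 0.36 for DTrsp, 0.61 for A34, 0.02 for G37L and 0.14 for G37H. All 4 values lay above the median of all genes, and in A34 629 of 9285 genes were at or above it; relative to abundant transcripts, A34 alone was above 0 (0.42). Of 9 measured genes of selenium, sulfur and methyl handling, 2 were at least 2-fold higher in DTrsp, glutathione reductase Gsr at 1.69 and the glutaredoxin Glrx at 1.05. In A34, 1 was at least 2-fold lower, Cth, the transsulfuration enzyme that also cleaves selenium-containing amino acids, at -1.07. In G37L 2 were lower, Cth at -2.47 and the methyltransferase Inmt at -1.26, and in G37H 2 were lower, Cth at -2.35 and Cbs, the enzyme before Cth in the pathway, at -1.32. Thus of the enzymes that free selenium from amino acids, Cth was low in the 3 transgenic lines and Scly was not.

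Among the factors that read the UGA codon, Secisbp2 had log2 ratios of 0.07 for DTrsp, 0.14 for A34, -0.54 for G37L and 0.13 for G37H. It was at most 1.10-fold from wild type in DTrsp, A34 and G37H but 1.46-fold below it in G37L, where the value was an average over 3 of 4 arrays. Its relative Secisbp2l, which binds SECIS elements too, was at -0.45, -0.40, -0.73 and -0.47, but its 2 probes were far apart in DTrsp (0.20 and -1.11). The Secisbp2 level in G37L was next to the lowest of 9 measured genes with an L7Ae-type RNA-binding fold, and Secisbp2l was the lowest. Of those 9, the stress gene Gadd45g was at least 2-fold higher in G37L (1.28) and G37H (1.87).

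Rpl30, a protein of the large ribosomal subunit that also binds SECIS elements, was at 0.66 for DTrsp, 0.02 for A34, 0.10 for G37L and -0.07 for G37H. In DTrsp it lay within its class: the other 37 measured large subunit genes had a median of 0.49, and Rpl30 was at place 9 from the top of 38. In G37L and G37H it was at place 8 from the bottom, with medians of 0.30 and 0.13 for the others. Of the 38 genes, 0 were at least 2-fold higher in any line, and 1 was at least 2-fold lower, the stalk protein Rplp0 at -1.56 in G37L. The large subunit as a whole lay 0.33 above all genes in DTrsp and 0.41 above them in G37L, and Rpl30 lay within the range of the other large subunit genes in every line.

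Trnau1ap, also called SECp43, binds the selenocysteine tRNA and its partners. Its log2 ratio was 0.19 for DTrsp, -0.09 for A34, -0.72 for G37L and -0.75 for G37H. Both G37 lines were below wild type, by 1.65-fold and 1.68-fold, while DTrsp and A34 lay near it. With Sephs1, it was the member whose G37L and G37H values were closest, at 0.03 apart for Trnau1ap and 0.05 for Sephs1. In G37H 679 of 9285 genes were at or below Trnau1ap, and in G37L 945.

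**Figure D3:**
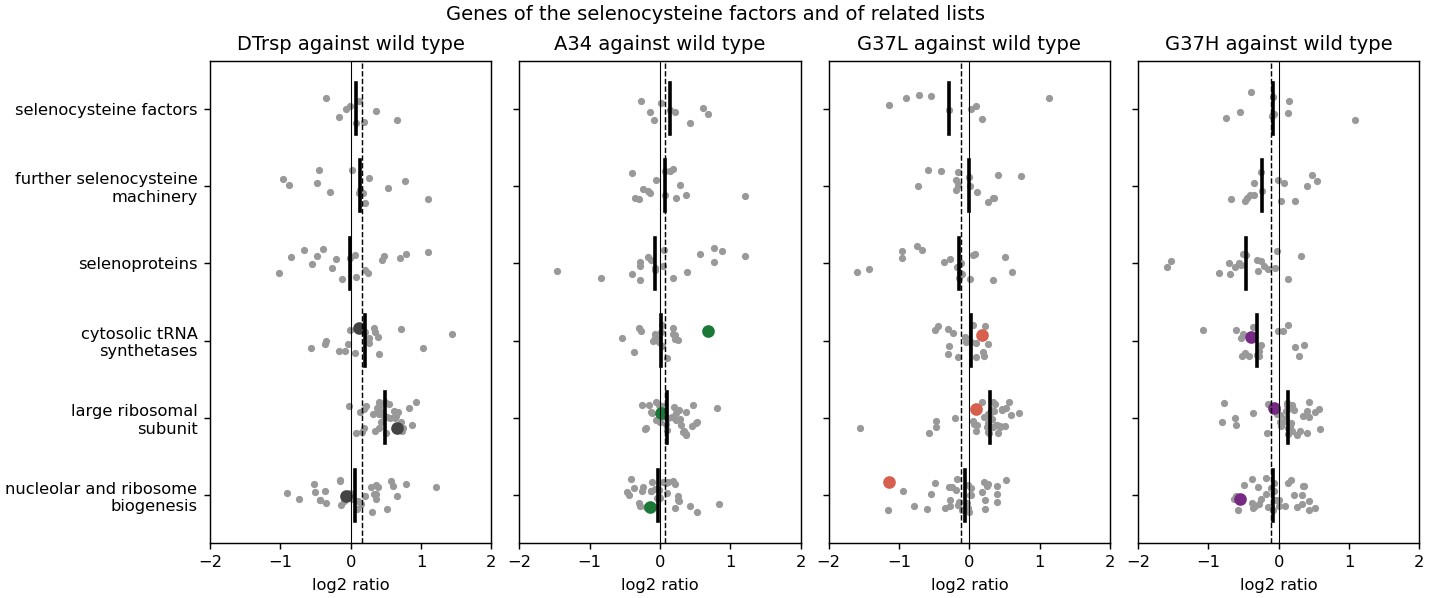
Log2 ratio of mutant over wild type (horizontal axis) of each measured gene (points, spread vertically for legibility) in 6 lists (rows) and 4 comparisons (panels). Black bars are list medians, the dashed line is the median of all genes, and the large coloured points are Sars1, Rpl30 and Ncl within their classes; Sars1 is the highest synthetase in A34 and Ncl stands at the low end of the nucleolar genes in G37L.

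Some members differed between the 2 G37 lines by more than others. From G37L (2 copies) to G37H (16 copies) the log2 ratio was higher by 0.82 for Pstk, 0.67 for Secisbp2 and 0.60 for Ncl, and lower for Sars1, whose difference was -0.58. The remaining 5 members differed by 0.20 or less: Sepsecs by 0.20, Rpl30 by -0.16, Scly by 0.13, Sephs1 by -0.05 and Trnau1ap by -0.03. No member differed by 2-fold, against 6.74% of all genes, and the G37L values of Pstk and Secisbp2 averaged 3 of 4 arrays. Pstk, Secisbp2 and Ncl were nearer to wild type with 16 copies than with 2, and Sephs1 and Trnau1ap were as far from it with either. All of these differences were below the 90th percentile of the distance between 2 probes of a gene (0.87 in either line). Whether the lines shared wild-type animals is not given, and the differences were not tested.

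**Figure D4:**
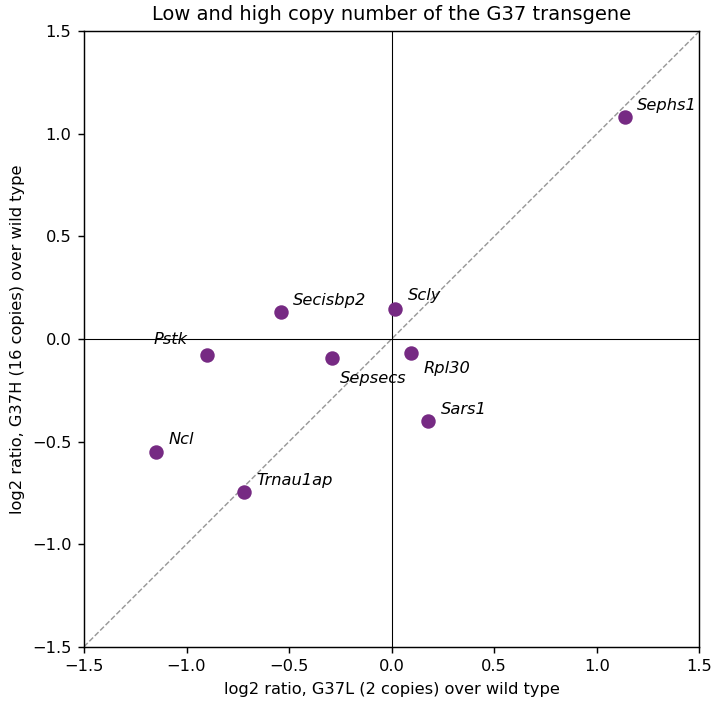
Log2 ratio over wild type with 16 copies of the G37 transgene (vertical axis) against that with 2 copies (horizontal axis) for the 9 members; each point is 1 gene and the dashed line marks equal values. Sephs1 and Trnau1ap lie next to the line, and Pstk, Secisbp2 and Ncl lie farthest above it.

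With 2 copies of either transgene, A34 and G37L can be set side by side. Ncl was at -0.15 in A34 and -1.15 in G37L, a difference of 1.0, and it was the only member at least 2-fold apart, against 9.62% of all genes. Sephs1 differed by -0.71 the other way. Secisbp2, Trnau1ap, Pstk and Scly were higher in A34 by 0.68, 0.64, 0.63 and 0.60. The median of all genes was also higher in A34, by 0.20, and relative to it Ncl was under 2-fold apart. Against the knockout, Sephs1 was higher by 1.14 in G37L and 1.09 in G37H, and by 0.43 in A34. Ncl differed from the knockout by -1.09 in G37L and -0.49 in G37H, and Trnau1ap by -0.91 and -0.94. Of all genes, 14.1% were at least 2-fold apart from the knockout in G37L, 13.2% in G37H and 8.57% in A34. The median differences of all genes were -0.28, -0.29 and -0.11.

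Further genes of the selenocysteine machinery were mostly within 2-fold, as were most of all genes. Of 21 listed, 15 were measured; Eefsec and Alkbh8 had no named probe. Sephs2 in DTrsp and A34 was the only value at least 2-fold higher, and 0 were at least 2-fold lower. Trit1, which modifies A37, was at -0.87 for DTrsp, 0.07 for A34, -0.16 for G37L and -0.45 for G37H, so its lowest value was in the line without the tRNA gene. The 19 measured selenoprotein genes had medians of -0.01, -0.07, -0.15 and -0.47 in the same order. Of the selenoproteins, Selenow was at least 2-fold lower in every line, at -1.02, -1.47, -1.60 and -1.59, and the mitochondrial thioredoxin reductase Txnrd2 in G37L and G37H, at -1.42 and -1.53; Sephs2 was the only one at least 2-fold higher in any. Of 11 measured genes of nonsense-mediated decay, which can degrade selenoprotein messengers, 0 were at least 2-fold apart in any line. Beside the shares of all genes, neither this count nor that of the further machinery sets its list apart.

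The genes with values most like those of the 3 members of widest range were found by Euclidean distance over the 4 comparisons. For Sephs1 they were the enolase Eno3 (distance 0.25), the cathepsin Ctsc (0.31) and the RNA sensor Ddx58 (0.32). For Ncl they were the kinase Dyrk1a (0.12), the DNA repair subunit Xrcc5 (0.15) and the quinone reductase Nqo2 (0.16), and for Sars1 they were Wbp1 (0.07), Il17ra (0.11) and Mob3c (0.15). Over the 4 comparisons Sephs1 spanned 1.14, Ncl 1.09 and Sars1 1.08, against a median of 0.77 for all genes. Of all genes, 22.1% spanned as much as Sephs1 and 25.3% as much as Ncl.

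In whole liver, a change in the make-up of cells and a change per cell cannot be told apart. Ratios do not show whether defining markers were present, so the tissue label was not checked. The 23 hepatocyte markers had medians of 0.56, 0.34, 0.56 and 0.50 in DTrsp, A34, G37L and G37H. In the same order, 0, 0, 3 and 0 of them were at least 2-fold higher and 0, 1, 0 and 1 lower. The 16 measured Kupffer cell and macrophage markers had medians of -0.01, 0.65, 0.73 and 0.53, with 1, 3, 5 and 4 genes at least 2-fold higher and 0 lower. Single markers ran from -0.59 to 1.02 in DTrsp, -0.06 to 1.12 in A34, 0.17 to 1.60 in G37L and -0.35 to 1.56 in G37H. Like the Sephs1 values, the macrophage marker medians were above 0 in the 3 transgenic lines and near 0 in DTrsp. The marker medians of A34 and G37H, 0.65 and 0.53, carry no spread between animals, and whether they differ was not tested. Sephs1 was at 0.43 in A34 and 1.08 in G37H. Single markers went both ways between these lines: Vsig4 was at 0.70 in A34 and 1.56 in G37H, and C1qa at 0.98 and 0.45. Medians of the 10 endothelial markers lay between -0.06 and 0.53, and those of the 8 stellate cell markers between -0.39 and 0.24. The 3 lymphocyte markers lay between -0.60 and 0.30, the 3 neutrophil markers between -0.22 and 0.46, the 2 cholangiocyte markers between -0.32 and 0.45 and the 7 proliferation genes between -0.01 and 0.35, each as list medians. The part of these cells in the values of the selenocysteine factors was not tested.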

How the data were processed

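Liver RNA of mutant and wild-type littermates was compared on 2-colour arrays, per the labels, with 15 µg of RNA copied from an oligo-dT primer. The deposited table holds log ratios, taken as log2, 1 column for each of 4 comparisons, averaged by the authors over animals, per the labels; background correction, normalization, spot filter and log base are details not given in the sources used here. As log10, the largest value would be a 78331-fold ratio, so log2 was assumed; natural logarithms are also possible. Gene identifiers of the platform annotation were matched to the GRCm38.p6 gene table (12984 probes), and 63 probes kept the annotation's symbol; 110 with several genes and 2321 not listed were left unnamed. Probes of a gene were averaged (Python 3.11.15, pandas 2.3.3). No test was run, since each comparison is 1 averaged column, and members are described beside all 9285 genes at 2-fold. Counting was tested on simulated data. The text names all members, Sephs2, Eefsec, Sars2, Trit1, Alkbh8 and Secisbp2l, and the 3 genes most like each of the 3 widest-ranging members. Of the other lists described, genes at least 2-fold apart are named, at most 4 per list and comparison. Abundant transcripts, cell type markers and proliferation genes are the exception, given as list medians or counts and not by name. Members and lists were chosen with earlier results of these data known. Alternatives were other centring, scaling, probe summaries, thresholds, log base and subsets. The number of arrays limits the precision.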

Additional observations from a re-analysis of the deposited data

How the results depend on the processing

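The median of the members moved by less than the typical distance between probes of 1 gene under each alternative run, except in DTrsp, where centring on abundant transcripts gave -0.46 in place of 0.07. That distance is a loose scale for a median of 9 genes, and signs did change. Centred on all genes, the median was -0.09 in DTrsp and 0.04 in G37H. Centred on abundant transcripts, it was -0.05 in A34. Without values shown to average fewer arrays, it was 0.02 in G37L in place of -0.29. Counts at 2-fold were small and moved with the setting. At 1.5-fold, 2 members were higher in A34 and 1 in DTrsp, 3 were lower in G37L and 1 in G37H. At 3-fold, 0 were higher in G37L and G37H and 0 lower in G37L. Centred on abundant transcripts, 0 were higher in G37L and G37H and 2 lower in G37L (Ncl and Pstk). Read as natural logarithms, 3 were lower in G37L and 1 in G37H. Without values shown to average fewer arrays, 0 of 8 members were higher in G37H, since Sephs1 has no other value there. Without Ncl, Rpl30 and Sars1, 0 were lower in G37L. Leaving out Sepsecs was chosen after seeing the data and changed no count; the centred values of Sephs2 were also chosen then. No member at least 2-fold apart changed sign under the alternatives run. No paired analysis was possible because each comparison is 1 averaged column, and for the same reason no animal could be left out in turn.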
